A study of Rattus norvegicus with 9 samples.

Results

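miR-193, miR-193b and miR-365 are small regulatory RNAs that have been linked to fat, and their reads were followed here through the wall of the rat left ventricle. Members were taken by name from the annotated sequences: every sequence filed under the rat entries of miR-193 and miR-365, and every sequence filed under miR-193b of any species, with trimmed, extended, substituted, minor strand and precursor forms included. This gave 139 of 46358 annotated sequences, of which 21 belonged to miR-193, 46 to miR-365 and 72 to miR-193b. Together they held 1388 of 7631327 annotated reads, with 168 reads under mir-193, 489 under mir-365 and 731 under mir-193b. Summed by name and by rat or other species, the sequences formed 1354 miRNAs, and the members were 3 of these.

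The libraries came from 3 male Sprague-Dawley rats aged 8 months, called hearts 6, 7 and 8, with no treatment named. The left ventricular free wall of each heart was cut into epicardium, mid-myocardium and endocardium, so each layer had 3 libraries and each heart gave all 3 layers. Each outer layer was defined by a depth of cut from the surface, and only RNA samples that passed an integrity limit were sequenced. Levels are given in RPMM, the reads of a miRNA per 1000000 reads of its library that were annotated to any miRNA. Annotated reads per library ran from 283991 in mid-myocardium of heart 6 to 1428025 in endocardium of heart 7, so 3 reads, the number taken as the limit of detection, stand for 10.6 and 2.10 RPMM in these libraries. No libraries of a layer agreed within sampling noise (chi-square per degree of freedom from 58.7 to 366), so none was counted as a duplicate. Reads are PCR products without molecular identifiers, so intervals and limits given for single libraries cover counting error only.

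A mature miRNA is cut from a hairpin precursor and guides Argonaute to messenger RNAs, mainly by pairing of its seed, the bases next to its 5′ end. Loss or gain of a base at the 5′ end therefore shifts the seed, while changes at the 3′ end leave it in place. miR-193 and miR-193b belong to the same family. miR-365 has another seed but is encoded close to a miR-193 family gene, and the miR-193b and miR-365 cluster is known for favouring brown fat over muscle in precursor cells, in part by limiting the corepressor Runx1t1. Fat can lie on the outer surface of the heart, but mRNA markers of fat cells were not analysed here, so the amount of fat in each piece was not measured.

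The mature 3p sequences of the rat genes are shown because the seed sets which members can share targets. They are taken from RefSeq on the GRCr8 build, where all 3 hairpins were matched by symbol, and the seed, bases 2 to 8 from the 5′ end, is in capitals.
miR-193a-3p, gene Mir193, chr10:65170370-65170391, plus strand: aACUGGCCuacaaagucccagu
miR-193b-3p, gene Mir193b, chr10:1824994-1825012, plus strand: aACUGGCCcacaaaguccc
miR-365-3p, gene Mir365b, chr10:65184271-65184292, plus strand: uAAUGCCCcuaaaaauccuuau
miR-193 and miR-193b shared the seed ACUGGCC, and over the 19 bases of the shorter entry they differed by a single substitution, T9C in DNA letters (miR-193 first, counted from the 5′ end). miR-365 had the seed AAUGCCC, and whether all of its reads came from Mir365b was not tested. The hairpins of Mir193 and Mir365b lay 13814 bases apart on the same strand, both within the bounds of Faul2. A gene listed as Mir193a overlapped Mir193. Mir193b lay elsewhere on chromosome 10, within the bounds of LOC102547286. The nearest genes that ended before it were Trnat-cgu2 and then Mrtfb.

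No miR-193b read was filed under rat. The horse entry (Equus caballus) took 68.0% of them and the bovine entry (Bos taurus) 31.1%. Each of the 72 sequences had fewer mismatches to the rat Mir193b hairpin than to those of Mir193 and Mir365b, and 77.5% ± 6.44 (SD, n = 9 libraries) of miR-193b reads matched the rat hairpin without a mismatch. The same share was 90.1% ± 8.69 for miR-193 and 79.9% ± 5.66 for miR-365. The reads that carried miR-193b are shown because they are longer than the rat entry above, which they continue without a mismatch. They are written in DNA letters as in the deposited files, again with the seed in capitals.
miR-193b, horse mature form, 22 nts: aACTGGCCcacaaagtcccgct
miR-193b, horse form plus a base, 23 nts: aACTGGCCcacaaagtcccgctt
miR-193b, bovine mature form, 24 nts: aACTGGCCcacaaagtcccgcttt
Against miR-193a-3p, the 22-nt form differed at 3 positions, written T9C, A20G and G21C. A read of miR-193b and a read of miR-193 can thus be told apart by base 9 even when the 3′ end is trimmed.

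miR-193b was the most abundant member and miR-193 the least. The mean over the 9 libraries was 108 ± 49.5 RPMM (SD) for miR-193b, 65.6 ± 19.7 for miR-365 and 22.8 ± 10.9 for miR-193, which placed them at ranks 133, 154 and 209 of the 1354 miRNAs. The most common form of each was 22 nts long, so these levels were not corrected for length, and the efficiency with which each sequence was ligated was not measured. Within libraries miR-193b was above miR-193 in 9 of 9, by 2.89-fold to 11.1-fold with a mean of 5.30, and miR-365 was above miR-193 in 9 of 9, by 1.83-fold to 5.67-fold with a mean of 3.27. miR-193b was above miR-365 in 8 of 9 libraries, with a mean ratio of 1.67. The exception was mid-myocardium of heart 8, where the ratio was 0.928. The ranges of miR-193b and miR-365 overlapped over the 9 libraries, as did those of miR-365 and miR-193.

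miR-193b was found at 122 RPMM (115 reads) in epicardium of heart 6, 94.7 (73 reads) in heart 7 and 53.7 (50 reads) in heart 8. In mid-myocardium it was 208 (59 reads), 82.3 (62 reads) and 73.1 (77 reads) in the same order. In endocardium it was 163 (116 reads), 70.7 (101 reads) and 103 (78 reads). The highest library of each layer was that of heart 6, and the layers overlapped. The layer means were 90.3 ± 34.6 RPMM (SD, n = 3) in epicardium, 121 ± 75.2 in mid-myocardium and 112 ± 46.9 in endocardium.

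miR-365, whose seed is not that of the miR-193 family, was found at 66.0 RPMM (62 reads), 88.2 (68 reads) and 38.6 (36 reads) in epicardium of hearts 6, 7 and 8. In mid-myocardium it was 88.0 (25 reads), 37.2 (28 reads) and 78.8 (83 reads). In endocardium it was 77.3 (55 reads), 65.8 (94 reads) and 49.99 (38 reads). Its layer means of 64.3 ± 24.8, 68.0 ± 27.1 and 64.4 ± 13.7 RPMM (SD, n = 3) were the closest to each other of the 3 members, and no heart was highest throughout.

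miR-193, the low member with the seed of miR-193b, was found at 27.7 RPMM (26 reads), 15.6 (12 reads) and 16.1 (15 reads) in epicardium of hearts 6, 7 and 8. In mid-myocardium it was 35.2 (10 reads), 11.9 (9 reads) and 22.8 (24 reads). In endocardium it was 42.2 (30 reads), 24.5 (35 reads) and 9.21 (7 reads). With so few reads the intervals were wide: the 10 reads of mid-myocardium of heart 6 gave a 95% Wilson interval from 19.1 to 64.8 RPMM, and the 7 reads of endocardium of heart 8 an interval from 4.46 to 19.0. The layer means were 19.8 ± 6.84, 23.3 ± 11.6 and 25.3 ± 16.5 RPMM (SD, n = 3).

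**Figure D1:**
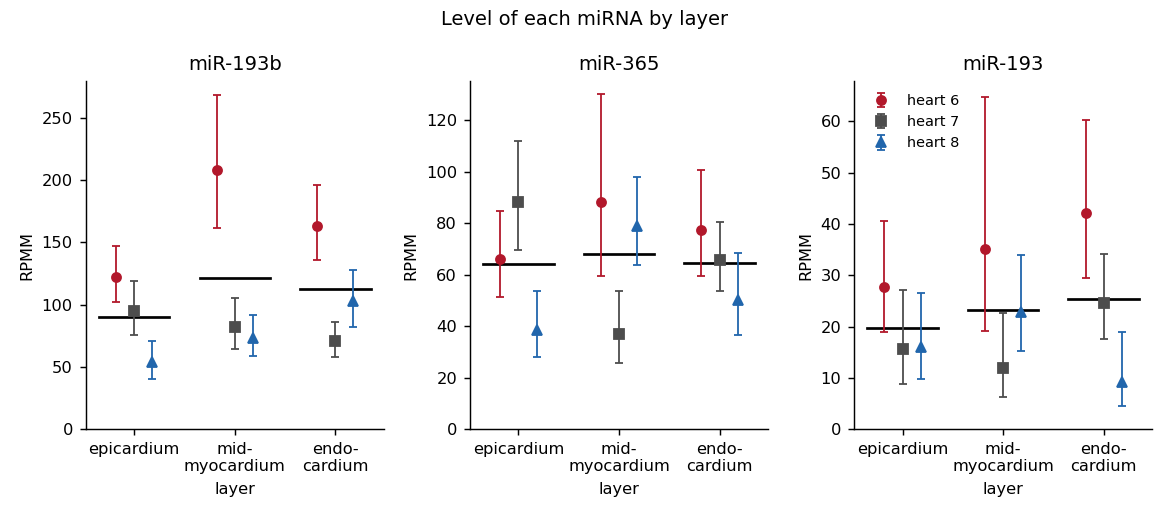
Level of miR-193b, miR-365 and miR-193 in RPMM in each library, grouped by layer, with hearts as symbols, 95% Wilson intervals as bars and the mean of each layer as a black line. Layer means lie within the spread of the hearts for each miRNA, and for miR-193b and miR-193 heart 6 is highest in every layer.

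No member differed between layers by more than the spread between hearts. Endocardium was compared with epicardium by limma on log2(RPMM + 1), a scale that understates changes of low miRNAs. The difference, endocardium minus epicardium, was 0.31 (SE 0.44, adjusted p = 0.996) for miR-193b, 0.06 (SE 0.38, adjusted p = 0.996) for miR-365 and 0.16 (SE 0.54, adjusted p = 0.996) for miR-193. The 95% intervals ran from -0.71 to 1.32, from -0.83 to 0.94 and from -1.10 to 1.41 in the same order. Of the 300 miRNAs tested, 0 passed an adjusted p of 0.05 (0%), with 11 at an unadjusted p under 0.05, and 0 passed by edgeR's quasi-likelihood test or DESeq2 on recovered reads, with 10 and 8 at an unadjusted p under 0.05. In whole pieces of ventricular wall, fewer cells of a type and less RNA per cell cannot be told apart.

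Mid-myocardium minus epicardium was 0.33 (SE 0.50, adjusted p = 0.968 by limma) for miR-193b, 0.07 (SE 0.45, adjusted p = 0.986) for miR-365 and 0.15 (SE 0.44, adjusted p = 0.974) for miR-193. Here 0 of 299 miRNAs passed (0%), with 9 at an unadjusted p under 0.05; edgeR passed 0, with 13, and DESeq2 passed miR-10b alone, which is no member, with 13. The differences of mid-myocardium from endocardium were still smaller, at 0.03 (SE 0.50, adjusted p = 0.991) for miR-193b, 0.01 (SE 0.39, adjusted p = 0.996) for miR-365 and -0.0035 (SE 0.61, adjusted p = 0.996) for miR-193. In that comparison 0 of 302 miRNAs passed (0%), with 11 at an unadjusted p under 0.05, and edgeR and DESeq2 passed 0, with 9 and 2.

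No member had layers that did not overlap in any of the 3 comparisons. Over all miRNAs tested, every endocardial library lay above every epicardial library for 2.67% and below for 4.33%. Mid-myocardium lay wholly above epicardium for 3.34% and below for 5.02%, and wholly above endocardium for 4.3% and below for 4.64%. Two-sided exact permutation tests of RPMM between layers gave p from 0.6 to 1 for the members in the 3 comparisons, where 3 libraries against 3 cannot give a p below 0.1. Exact tests that swapped layers within hearts gave p from 0.5 to 1, with a smallest possible p of 0.25.

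**Figure D2:**
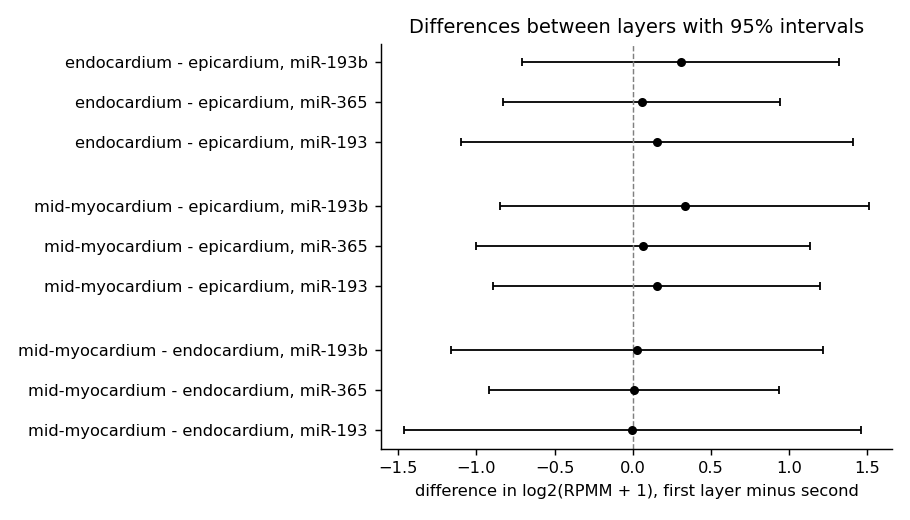
Difference between layers in log2(RPMM + 1) for each miRNA by limma, first layer minus second, with points as estimates and bars as 95% intervals. All 9 intervals include 0, and the widest, that of miR-193 between mid-myocardium and endocardium, runs from -1.46 to 1.46.

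The levels of miR-193b and miR-193 separated heart 6 from the other hearts. This comparison was added after the values were seen. miR-193b lay between 122 and 208 RPMM in the 3 libraries of heart 6 and between 53.7 and 103 in the 6 libraries of hearts 7 and 8, with means of 164 and 79.5 RPMM. miR-193 lay between 27.7 and 42.2 RPMM in heart 6 and between 9.21 and 24.5 in hearts 7 and 8, with means of 35.02 and 16.7. The ratios of these means were 2.07 and 2.10. miR-365 averaged 77.1 RPMM in heart 6 and 59.8 in the others, and overlapped between them. Every library of heart 6 was above every library of hearts 7 and 8 for 10 of 310 miRNAs tested (3.23%), miR-193b and miR-193 among them, and below for 5.16%. The other 8 included miR-16, miR-139, let-7a and let-7c, which are no members and are named here after their values were seen.

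The differences between hearts did not pass a test over all miRNAs. The pieces of a heart served as its replicates in this test, so its p does not measure the spread between animals. On the log2(RPMM + 1) scale with layer as covariate, the difference of miR-193b was -0.96 for heart 7 minus heart 6 and -1.11 for heart 8 minus heart 6 (SE 0.32 each), with a limma F test p of 0.0214 and an adjusted p of 0.368. For miR-193 the differences were -1.01 and -1.14 (SE 0.42 each, adjusted p = 0.529 by limma). For miR-365 they were -0.35 and -0.51 (SE 0.42 each, adjusted p = 0.856 by limma). Exact permutation of the hearts within layers gave p = 0.0833 for miR-193b, 0.278 for miR-193 and 0.556 for miR-365, with 0.0278 the smallest it can give. By limma 0 of 310 miRNAs passed (0%), with 30 at an unadjusted p under 0.05, while edgeR passed 4 and DESeq2 13, each with 31 at an unadjusted p under 0.05 and no member among those passed.

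**Figure D3:**
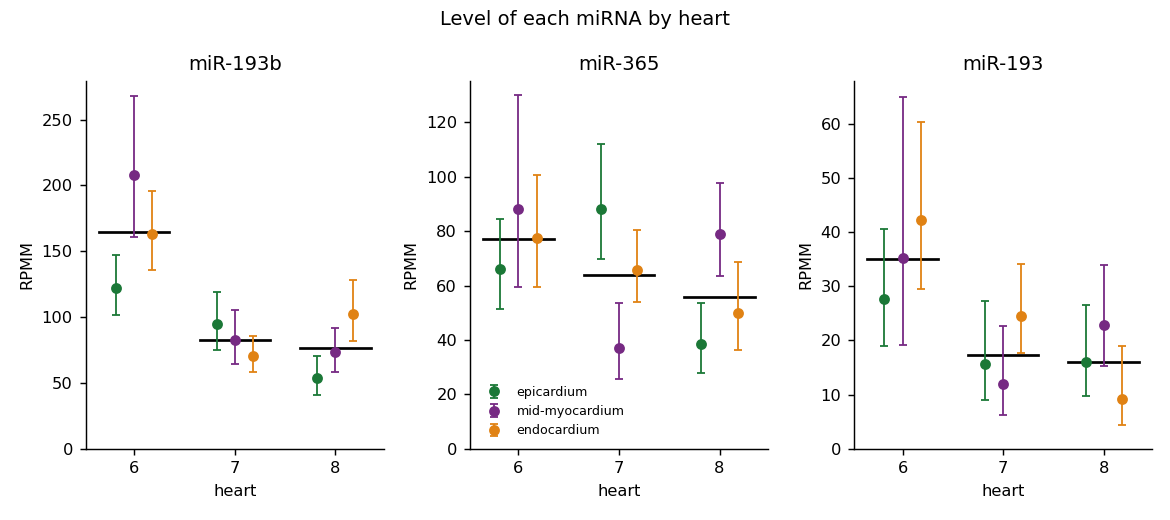
Level of each miRNA in RPMM grouped by heart, with layers in colour, 95% Wilson intervals as bars and the mean of each heart as a black line. For miR-193b and miR-193 the 3 libraries of heart 6 lie above all 6 libraries of hearts 7 and 8, and for miR-365 the hearts overlap.

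Other measures also differed between hearts, and their part in the levels of miR-193b and miR-193 was not tested. Mid-myocardium of heart 6 was the shallowest library and endocardium of heart 6, with 711437 annotated reads, the next. The libraries of hearts 7 and 8 had 753214 to 1428025, and epicardium of heart 6, with 939580, lay within that range. Of the marker lists, leukocyte miRNAs (5 of 5 detected) summed to 11256 to 14240 RPMM in heart 6, 10227 to 13552 in heart 7 and 7042 to 9634 in heart 8. Most of this sum is miR-150, with 67132 reads against 7333 for the next, miR-146a. Singly, 2 of the 5 were higher and 3 lower in heart 6 than on average in hearts 7 and 8. Their median log2 difference was -0.08, against -0.05 for all miRNAs. Red cell miRNAs (3 of 3 detected) summed to 129139 to 148707 RPMM in heart 6, inside the range of 93799 to 228889 in hearts 7 and 8, but this sum is almost all miR-486. The authors cite a report that miR-486 is enriched in heart and skeletal muscle, so the sum is not a measure of red cells alone. The low member miR-144 was 1.44 and 1.41 higher on the log2 scale in hearts 7 and 8 than in heart 6 (SE 0.32 each, adjusted p = 0.21 by limma, 0.0114 by DESeq2 and 0.0341 by limma on exact mature sequences). Cardiomyocyte miRNAs (6 of 6) spanned 93966 to 107972 RPMM in heart 6 and 54282 to 142652 in the others. Endothelial miRNAs (3 of 3), smooth muscle miRNAs (2 of 2) and fibroblast miRNAs (2 of 2) also overlapped between heart 6 and the other hearts. Epithelial or mesothelial miRNAs of the miR-200 family (5 of 5), which could mark the surface of the heart, were low and summed to 25.3 to 35.2 RPMM in heart 6, 18.9 to 93.4 in heart 7 and 46.2 to 62.7 in heart 8. Of this list 3 were tested between hearts and 3 had an unadjusted p under 0.05 with 0 past the adjusted threshold, namely miR-141 (adjusted p = 0.21 by limma), miR-200b (0.349) and miR-200c (0.499), in differing directions. By layer the list summed to 34.1 to 93.4 RPMM in epicardium, 21.2 to 62.7 in mid-myocardium and 18.9 to 51.3 in endocardium, and the layers overlapped. On the log2 scale, endocardium minus epicardium was -1.99 for miR-200b, 0.01 for miR-141 and -0.05 for miR-200c. Each had an adjusted p of 0.996 by limma. Mid-myocardium minus epicardium was -2.41 for miR-200b (SE 1.00, limma unadjusted p = 0.0472, adjusted p = 0.959). It was 0.24 for miR-141 (adjusted p = 0.974 by limma) and 0.43 for miR-200c (adjusted p = 0.959 by limma).

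The miRNAs whose levels followed those of the members most closely over the 9 libraries are given as a description. Among 168 miRNAs with a mean of at least 50 RPMM, miR-193b was nearest to miR-16 (Pearson's r = 0.927 on the log2 scale), miR-139 (0.905) and miR-652 (0.881). miR-193 was nearest to miR-139 (0.790) and miR-16 (0.743), followed by an entry of another species, miR-2887 (0.676). miR-365 had other neighbours, namely miR-4454 (0.810) and miR-22 (0.781), both filed under other species, and miR-320 (0.770). Between the members r was 0.57 for miR-193b with either of the others and 0.65 for miR-193 with miR-365, so no member was among the nearest of another. The 9 points share 3 hearts and the same totals, and so are not independent. miR-16 itself ran from 5356 to 6433 RPMM in heart 6 and from 2739 to 3704 in the other hearts, and miR-139 from 177 to 236 and from 95.5 to 138.

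Other miRNAs with a reported role in brown fat were compared between layers in the same fits, in which 0% of all miRNAs passed in each comparison, so a count of 0 says nothing particular to them. Among 13 miRNAs said to promote brown fat, a list that includes miR-193b and miR-365 themselves as well as the much more abundant miR-378 and miR-26a, 12 were detected and 10 tested between endocardium and epicardium. None of these 10 passed (0 higher, 0 lower, limma, with miR-129 alone at an unadjusted p under 0.05), and their median difference was 0.06 against -0.01 for all miRNAs. The listed miR-328 was found by that name only under other species (40 reads) and was not tested. The rat entry miR-328a was not counted in the list, and its difference was 0.14 (SE 0.30, adjusted p = 0.996 by limma). Among 8 miRNAs said to restrain it, such as miR-155, miR-133a and miR-27b, 8 were tested and 0 passed. Of these, 0 had an unadjusted p under 0.05, and their median was 0.07. From epicardium to mid-myocardium the medians were 0.07 for 9 tested promoting and 0.33 for 8 restraining miRNAs against 0.02 for all, again with 0 past the threshold in either direction. All 8 restraining miRNAs had a positive difference there, as they did from endocardium to mid-myocardium. The share of positive differences over all miRNAs was not counted. From epicardium to mid-myocardium miR-34a had an unadjusted p under 0.05 (difference 0.91, SE 0.28, adjusted p = 0.959 by limma). From endocardium to mid-myocardium the medians were 0.00 and 0.29 against 0.03, with 0 past the threshold. Here miR-129 had an unadjusted p under 0.05 (difference -2.20, SE 0.53, adjusted p = 0.8 by limma). miR-129 had only 26 reads over the 9 libraries and passed the filter of 10 reads through endocardium alone, the layer where it was highest. Its low p in both comparisons with endocardium is therefore no support for a difference. miR-133a and miR-133b also stand in the cardiomyocyte list, so the restraining list is not separate from muscle. The cardiomyocyte median was 0.40 from epicardium to mid-myocardium, with 6 of 6 positive. It was 0.45 from endocardium to mid-myocardium, with 5 of 6 positive.

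The members differed in the forms in which they were sequenced. The exact mature sequence made up 80.1% ± 10.5 (SD, n = 9 libraries) of miR-193 reads, 60.6% ± 3.31 of miR-365 reads and 53.5% ± 8.49 of miR-193b reads, where the horse, bovine and other mature entries are summed. miR-193 was above each of the others in 9 of 9 libraries, and miR-193b was below miR-365 in 7 of 9. The shares lay between 65.4% and 90% for miR-193, between 55.4% and 65.8% for miR-365, and between 42.3% and 62.9% for miR-193b. Among 153 miRNAs with at least 100 reads the median was 27.6%, and the members stood at ranks 6, 20 and 31 by reads of the 9 libraries summed. The rank of miR-193b rests on mature entries of several species, 22 to 24 nts long, being counted as exact.

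The 5′ end of miR-193 and miR-365 was nearly fixed, while that of miR-193b was not. On the 3p arm, 97.3% ± 4.93 of miR-193 reads and 98.6% ± 1.74 of miR-365 reads began at base 1 of the mature sequence, compared with 88.1% ± 6.07 of miR-193b reads. The reads of miR-193b that began elsewhere mostly lacked the first base, which applied to 85 of 727 reads or 11.6% ± 6.07 over libraries. The same loss was seen in 0 of 164 reads of miR-193, which allows a share of up to 1.83% (3 reads of the total), and in 4 of 483 reads of miR-365. The share was above that of miR-193 in 8 of 9 libraries. In mid-myocardium of heart 7 it was 0 of 62 miR-193b reads. For a comparison with other miRNAs, minor strand and precursor forms were left out and reads were aligned to the mature entries of the deposited file instead of the hairpin. On that measure a median of 1.36% of reads of the 153 miRNAs had another 5′ end, and the share was 11.8% for miR-193b (rank 29), 0.853% for miR-365 (rank 95) and 0.645% for miR-193 (rank 112).

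The most common read without the first base is shown because its seed differs from that of the family. It was chosen after its value was seen, since it held 4.79% of miR-193b reads (35 reads in 8 of 9 libraries), just under the limit of 5% set for naming a sequence.
miR-193b without base 1, filed under Bos taurus, 22 nts: aCTGGCCCacaaagtcccgctt
Its seed in DNA letters was CTGGCCC, against ACTGGCC in the full-length forms. By layer the share without the first base was 11.7% ± 3.60 in epicardium, 7.39% ± 6.46 in mid-myocardium and 15.7% ± 6.34 in endocardium (SD, n = 3). Endocardium and epicardium did not differ beyond their spread (exact two-sided permutation p = 0.4, smallest possible p 0.1).

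At the 3′ end miR-193 was the most uniform and miR-193b the least. Reads of 22 nts made up 86.8% ± 6.93 of miR-193, 70.0% ± 5.04 of miR-365 and 53.7% ± 6.68 of miR-193b on the 3p arm. Reads longer than 22 nts made up 1.93% ± 3.70, 17.1% ± 6.10 and 44.8% ± 5.97 in the same order, an order kept in 9 of 9 libraries. As filed, shorter reads were the reverse for miR-193b, at 1.53% ± 1.60 against 12.9% ± 6.03 for miR-365 and 11.2% ± 6.52 for miR-193. The share for miR-193b rests on 11 reads and would be higher with reads filed elsewhere. It leaves out 28 reads of 21 nts, closest to Mir193b, that were filed under miR-193 of Sarcophilus harrisii. Of miR-193b reads, the 22-nt horse form held 45.5% ± 8.24, the 23-nt form 13.2% ± 2.89 and the 24-nt bovine form 7.40% ± 4.39.

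**Figure D4:**
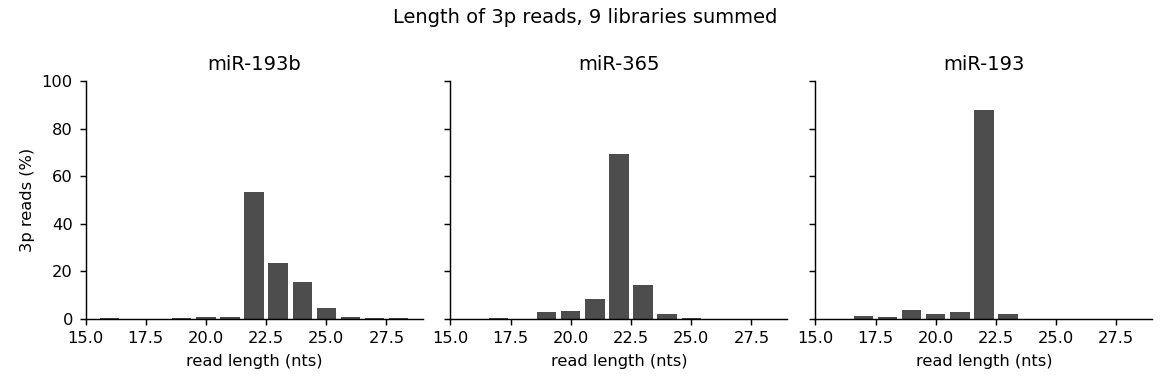
Length of the 3p reads of each miRNA as a percentage of its 3p reads, with the 9 libraries summed. miR-193 has 87.8% of its reads at 22 nts and miR-365 69.2%, while miR-193b has 53.5% at 22 nts, 23.7% at 23 nts and 15.7% at 24 nts.

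The forms of miR-365 that passed the limit of 5% were the mature sequence and the same sequence longer or shorter by a base. They are shown because they differ at the 3′ end alone and keep the seed.
miR-365, mature, 22 nts: tAATGCCCctaaaaatccttat
miR-365, with a further base, 23 nts: tAATGCCCctaaaaatccttatt
miR-365, without the last base, 21 nts: tAATGCCCctaaaaatcctta
The mature form had 294 reads, the longer form 32 reads, at 7.17% ± 3.35 of miR-365 reads, and the shorter form 31 reads, at 5.38% ± 3.64. The base that ends the longer form is the next base of the Mir365b hairpin. For miR-193 no form other than the mature sequence reached 5%.

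Reads whose last bases did not match the hairpin (a mismatch within the last 3 nts) made up 21.0% ± 6.27 of miR-193b, 19.3% ± 4.57 of miR-365 and 8.40% ± 7.79 of miR-193 3p reads. Whether these are bases added to the RNA or errors of sequencing was not tested. In miR-193b the mismatched end closed with A in 72 reads, T in 72, G in 11 and C in 2. In miR-365 the ends were 36 A, 25 T, 25 C and 5 G, and in miR-193 9 A, 3 T, 1 G and 0 C. In miR-365, T22C (base 22 of the mature sequence) had 15 reads in 8 of 9 libraries and T22A 8 reads. Substitutions before the last 3 bases were rare, with at most 2 reads each.

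**Figure D5:**
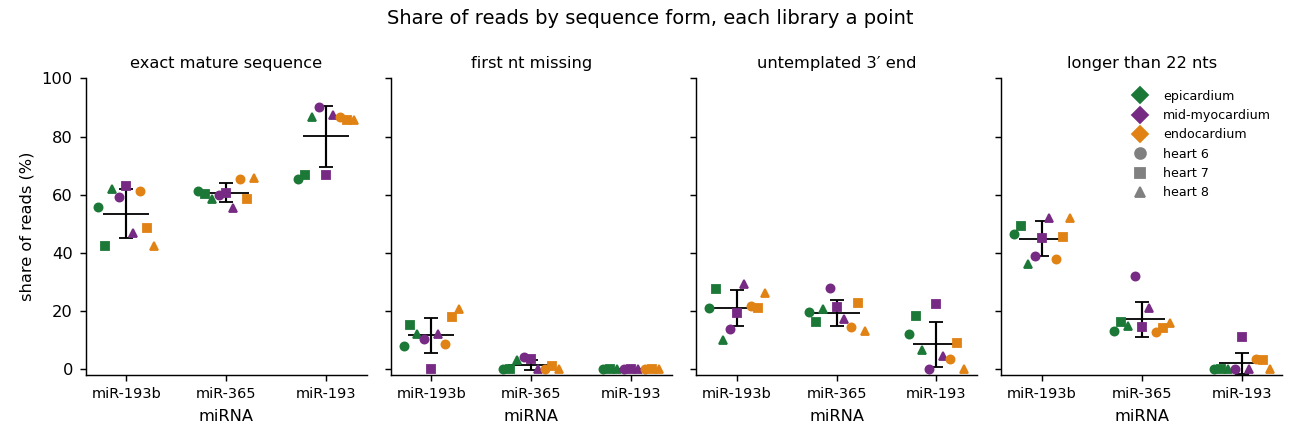
Share of reads in percent for 4 sequence forms of each miRNA, with each library as a point (colour for layer, symbol for heart) and the mean and SD over 9 libraries in black. miR-193b has the highest share of reads longer than 22 nts in every library and the highest share without the first base in 8 of 9, and miR-193 the highest share of exact mature reads in every library.

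The 5p arm of the hairpins was barely detected. It gave 4 reads for miR-193, 6 for miR-365 and 4 for miR-193b over the 9 libraries, or 2.13% ± 2.93, 1.18% ± 1.86 and 0.53% ± 0.91 of the reads of each. A further 8 reads close to the 5p arm of miR-365 were filed under other species and are not counted here. No library stood out, and with 5 libraries at 0 for miR-193 and for miR-365 and 6 for miR-193b, layers could not be compared at this depth. Differences in the shares of exact reads between endocardium and epicardium were also within their spread, at 86.0% ± 0.55 against 72.9% ± 11.9 for miR-193 (exact two-sided permutation p = 0.4), 63.3% ± 4.11 against 59.97% ± 1.504 for miR-365 (p = 0.3, exact) and 50.7% ± 9.63 against 53.4% ± 9.96 for miR-193b (p = 0.7, exact). The 13317 sequences that the authors left unannotated held 0 that contained the first 12 bases of the 3p sequence of any member.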

How the data were processed

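Small RNA of 9 pieces of rat left ventricle was sequenced as TruSeq libraries, 1 for each of 3 layers of hearts 6, 7 and 8. The authors trimmed the reads, annotated them against miRBase with CLC Genomics Workbench and deposited each annotated sequence in RPM over the annotated reads of its library (RPMM). The authors' grouped table, deposited as a signal scaled to differing totals, served as an alternative, and the deposited counts of unannotated sequences (at least 10 reads each) were searched for members.

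Every RPMM value was checked to be a whole multiple of the smallest value of its library (417222 values, 100% whole within 0.01 reads), so reads were recovered. Sequences were summed by miRNA name, apart for rat and other species, and kept with at least 10 reads in a library. Layers, 3 libraries against 3, were compared on log2(RPMM + 1) by limma (p adjusted after Benjamini and Hochberg, threshold 0.05), and hearts by limma's F test with layer as covariate. On recovered reads, edgeR called 0 miRNAs in each layer comparison and 4 between hearts. The fits were tested on simulated data. Reads were placed without gaps on the RefSeq hairpins of GRCr8 by their first 15 nts.

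The labels give the pairing, since layers with the same number came from the same heart. Deviations from the layer means correlated at a mean r of 0.126 within hearts (from -0.0817 to 0.395) and -0.0601 between hearts. The members and lists were chosen with earlier results of these data known. Named were both arms of the members, sequences with at least 5% of the reads of a member, the exact mature forms, entries of the same family in other species, the 3 miRNAs of highest Pearson's r among those with a mean of at least 50 RPMM, and the brown fat and cell type lists. Alternatives covered tools, normalization, pseudocounts, filters, the replicate block, features, totals and libraries left out. The comparison of hearts and the regrouping by hairpin match were added after seeing the data. Python 3.11.15 (matplotlib 3.10.9, scipy 1.17.1, numpy 2.4.6, pandas 2.3.3) and R 4.3.3 (DESeq2 1.42.0, edgeR 4.0.16, limma 3.58.1) were used.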

Additional observations from a re-analysis of the deposited data

Results flagged for a closer look

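Reads of the same family lay outside the entries used above. The miR-193 entry of another species, Sarcophilus harrisii, held 28 reads in 3 sequences over the 9 libraries, above the limit of 3 reads that a count of 0 allows, with 0 to 7 reads a library and reads in 8 of 9 libraries. The most common of these, with 25 reads, was aACTGGCCcacaaagtcccgc (seed in capitals), which matched the rat Mir193b hairpin without a mismatch and that of Mir193 with 3. A pair of sequences filed under rat miR-193, with 1 read each, likewise had 0 mismatches to Mir193b and 1 to Mir193. They are 18 and 19 nts long. The miR-365 entries of Bos taurus and Canis familiaris held 9 reads in 6 of 9 libraries. Of these, 8 began like the 5p arm of miR-365 but carried at least 3 mismatches to the Mir365b hairpin, and 1 was unlike it. Among the 8, 1 read was the exact mature sequence of the Bos taurus entry.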

How the results depend on the processing

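No member passed the threshold between layers or hearts in any alternative: the adjusted p of miR-193, miR-365 and miR-193b was at least 0.812, 0.873 and 0.705 between layers and at least 0.296, 0.636 and 0.0658 between hearts. With each alternative other than leaving out a library, the direction was kept for the 3 members in both comparisons with epicardium and between hearts. Mid-myocardium against endocardium, where the differences were near 0, turned direction for some member in 7 alternatives: miR-365 to -0.021 and miR-193b to -0.0023 with TMM, miR-365 to -0.085 and miR-193b to -0.067 with rat entries as the total, miR-365 to -0.10 with exact mature sequences alone, and miR-193 to 0.0030 with a pseudocount of 0.1, 0.034 without minor strand and precursor reads, 0.030 with the grouped table and 0.012 after the regrouping by hairpin match. The cause was not tested.

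With 1 library left out, where the lone remaining spread is pooled over miRNAs, endocardium minus epicardium ranged from -0.32 to 0.72 for miR-193, -0.26 to 0.32 for miR-365 and -0.025 to 0.59 for miR-193b. Mid-myocardium minus epicardium ranged from -0.20 to 0.55, -0.26 to 0.45 and -0.14 to 0.61, and mid-myocardium minus endocardium from -0.57 to 0.47, -0.22 to 0.39 and -0.44 to 0.34. Leaving out endocardium of heart 6 turned all 3 members in the first comparison (-0.32, -0.08 and -0.0039), and leaving out mid-myocardium of heart 6 turned all 3 in the second (-0.20, -0.16 and -0.14). With the heart number as a replicate block, since the hearts pair the layers, the count of calls stayed 0 in each layer comparison (14, 13 and 19 at an unadjusted p under 0.05) and the largest member difference, that of miR-193b between mid-myocardium and epicardium, stayed 0.33 (adjusted p = 0.914 by limma). The block changed no call.

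Calls over all miRNAs were 1 by DESeq2 between mid-myocardium and epicardium. Between hearts they were 0 in the limma fit reported, 4 by edgeR, 13 by DESeq2, 4 with a pseudocount of 10, 1 without a filter, 2 with 10 reads in every library, 3 with exact mature sequences, 1 without minor strand and precursor reads and 1 with the grouped table. With 1 library left out they ranged from 0 to 4, with 1 without epicardium of heart 8 and 4 without mid-myocardium of heart 8. With sequences of at least 10 reads alone, the exact share rose to 100% for miR-193 and 73.4% for miR-365, since rare forms are then dropped. With 1 heart left out the exact share ranged from 76.8% to 83.7% for miR-193, 59.8% to 61.0% for miR-365 and 50.8% to 55.0% for miR-193b. Depth limited miR-193 most, with 7 to 35 reads a library. The p-values between layers measure the spread between 3 animals of 1 strain, sex and age. Those between hearts rest on the spread among the layers of a heart, and each heart is 1 animal. They do not measure the spread between animals.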
